A study of Rattus norvegicus with 6 samples.

Results

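The potassium channel genes of the rat, whose symbols begin with Kcn, were examined in injured sciatic nerve. Members were all Kcn rows of the gene table whose counts summed to at least 10 over the 6 libraries, which left 69 genes of 93 Kcn genes listed and of 30957 genes in all. The rule used the summed count and not any difference between groups. The other 24 Kcn genes summed to 9 counts or fewer, and 9 of them held 0 counts. Of the 69 members, 57 passed the filter on low counts and were tested, and the 12 that did not pass summed to at most 74 counts. Among these were Kcnb2, Kcnc2, Kcne5, Kcnf1, Kcng3, Kcnk4, Kcnk7, Kcnk9, Kcnk16, Kcnn2 and Kcnq3.

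The nerves came from 1-month-old Sprague-Dawley rats. There were 2 rats in each of 3 groups, a control group, a group taken 4 days after the sciatic nerve crush (D4) and a group taken 7 days after it (D7), with 1 library per rat, named a or b. Injury was a brief forceps crush of the left nerve at mid-length, under chloral hydrate anesthesia. By the methods, control rats had the same operation without the crush, and by the labels they were normal controls. No transgene is named for any group. A crush cuts axons inside the nerve sheath, and the nerve segment holds no neuron cell bodies, so its RNA comes mainly from Schwann cells, fibroblasts, vessels, fat and immune cells. Of 3 neuron markers, Rbfox3 had at most 1 count in each library and Syt1 had 0 to 57. Snap25 had 82 and 21 counts in control, 15 and 26 at D4, and 3 and 6 at D7, where it passed as lower (-3.63 ± 0.78, adjusted p = 0.0147, edgeR). By contrast, the myelin gene Pmp22 had 367980 and 213802 counts in control a and b. Libraries held between 18727255 and 25350886 counts on genes.

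Potassium channels let potassium ions cross the cell membrane and so set the resting potential and end the action potential. Voltage-gated channels open on depolarization. Inward rectifiers pass potassium more easily into the cell than out of it and help glia take up potassium, and two-pore channels carry the resting leak. Large, small and intermediate conductance channels open with calcium, and Slo2 channels open with sodium. Auxiliary subunits set how many channels reach the membrane and how fast they close. In myelinated nerve, the voltage-gated channels of the Kcna family are best known from the axon beside the node of Ranvier, while Schwann cells also carry channels of their own. Counts scaled to the library total and TMM factors (CPM) were used to compare a gene between libraries. Length-corrected fragment levels (FPKM, deposited by the authors) were used only to compare levels between genes.

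The sequence just before the start of transcription is shown for 3 members with contrasting time courses: Kcna2 fell and partly returned, Kcnj10 rose at D7, and Kcnh1 rose on both days. Each line holds the 250 bases before the start, read 5′ to 3′ on the gene's strand, from RefSeq on build GRCr8. Capitals mark GC boxes (GGGCGG) and SOX-type letters (ACAAAG) on either strand.
Kcna2 (chr2:197393280-197393529, plus strand): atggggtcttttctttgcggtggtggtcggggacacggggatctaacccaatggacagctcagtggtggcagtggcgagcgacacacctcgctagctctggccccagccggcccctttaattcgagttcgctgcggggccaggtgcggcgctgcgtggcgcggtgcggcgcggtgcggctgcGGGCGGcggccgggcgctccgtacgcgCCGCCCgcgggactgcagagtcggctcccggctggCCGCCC
Kcnj10 (chr13:87334260-87334509, plus strand): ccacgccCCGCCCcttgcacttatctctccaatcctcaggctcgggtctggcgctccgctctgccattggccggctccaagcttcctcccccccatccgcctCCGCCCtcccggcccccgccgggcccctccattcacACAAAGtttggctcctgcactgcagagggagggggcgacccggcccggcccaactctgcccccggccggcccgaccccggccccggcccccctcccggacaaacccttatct
Kcnh1 (chr13:106252966-106253215, plus strand): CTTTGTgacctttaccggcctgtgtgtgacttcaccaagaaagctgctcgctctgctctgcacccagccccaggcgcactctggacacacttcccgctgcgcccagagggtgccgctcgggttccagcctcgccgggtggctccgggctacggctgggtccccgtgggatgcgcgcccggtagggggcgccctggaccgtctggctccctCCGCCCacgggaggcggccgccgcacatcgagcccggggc
All 3 sequences were rich in G and C, at 72.4%, 72.4% and 71.6%. Kcna2 held 3 GC boxes, the nearest ending at the base before the start, Kcnj10 held 2 and Kcnh1 held 1. The SOX-type letters were found once in Kcnj10 and once in Kcnh1. RefSeq promoters matched 47 of the 69 members, with 52 promoters between them. A GC box was in 26 of these 52 (50.0%) and in 30.5% of all 33469 promoters, and the median G and C content was 59.6% against 51.2%. The SOX-type letters were in 15.4% of member promoters and 16.3% of all. EGR-type letters (GCGNGGGCG) were in 7.69% and 4.29%, AP-1 letters (TGANTCA) in 1.92% and 6.34%, and TATA letters (TATAAA) in 1.92% and 12.9%. A match of letters describes the sequence and shows no binding.

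The leading potassium channel genes differed between the groups. By length-corrected level, the voltage-gated channel genes Kcna1 and Kcna2 led the control group with mean FPKM of 96.0 and 86.3. Their channels are best known from the axon, and which cells gave this RNA was not tested. Kcnk1, a two-pore channel gene, followed with 32.3, and Kcna5 with 18.4. The FPKM of Kcna1 was 110 and 82.2 in control a and b and that of Kcna2 was 93.7 and 78.9, so the order of these 2 genes lay within the spread between rats. At D4 the leading member was Kcng1, a voltage-gated subunit that is silent by itself, with a mean of 17.7 FPKM, ahead of Kcne4 with 8.41 and Kcna5 with 4.90. At D7 the leading member was Kcnj10, the inward rectifier of glia, with 42.9 FPKM, ahead of Kcna2 with 18.1 and Kcna1 with 14.4. In both D7 libraries the FPKM of Kcnj10, 51.5 and 34.3, was above that of every other member.

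Summed over the 69 members, the level was 1081 and 992 CPM in control a and b, 296 and 305 CPM at D4, and 403 and 370 CPM at D7. The 3 genes Kcna1, Kcna2 and Kcnk1 made up 58.7% and 48.3% of this sum in the control libraries, 4.21% and 4.21% at D4, and 21.2% and 13.6% at D7. Without these 3 genes the sum was 447 and 513 CPM in control, 283 and 292 CPM at D4, and 318 and 320 CPM at D7. The sums of the injured libraries lay below both control libraries with and without the 3 genes. Summed by subfamily, voltage-gated members fell from 680 and 574 CPM to 130 and 142 CPM at D4, while inward rectifiers stood at 62.8 and 66.9 CPM in control, 42.3 and 37.5 CPM at D4, and 109 and 86.4 CPM at D7. In bulk nerve, fewer cells of a type and less RNA per cell cannot be told apart.

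In the control vs D4 group, 27 of the 57 tested members changed, 8 of them higher and 19 lower, by edgeR's quasi-likelihood test, with a call needing at least a 2-fold change and an adjusted p-value under 0.05. That was 47.4% of the tested members, against 21.9% of all 15195 genes tested, of which 11.2% were higher and 10.7% lower. The libraries of the 2 groups did not overlap in 73.7% of the tested members, against 76.2% of all genes tested. They overlapped in none of the 27 called members, but a call selects for such a separation. The gap between 47.4% and 21.9% came with the fold threshold. With the adjusted p-value alone the same 27 members passed, against 44.2% of all genes tested. The median log2 fold change of the tested members was -1.06, against -0.04 over all genes tested. In the control vs D7 group, 25 of 57 changed, 9 higher and 16 lower, which was 43.9% of the members against 18.8% of all genes tested (9.83% higher and 9.02% lower). With the adjusted p-value alone, the same 25 members passed, against 37.5% of all genes. The median log2 fold change at D7 was -0.43, against 0.01 over all genes tested. Both comparisons share the same 2 control libraries.

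**Figure D1:**
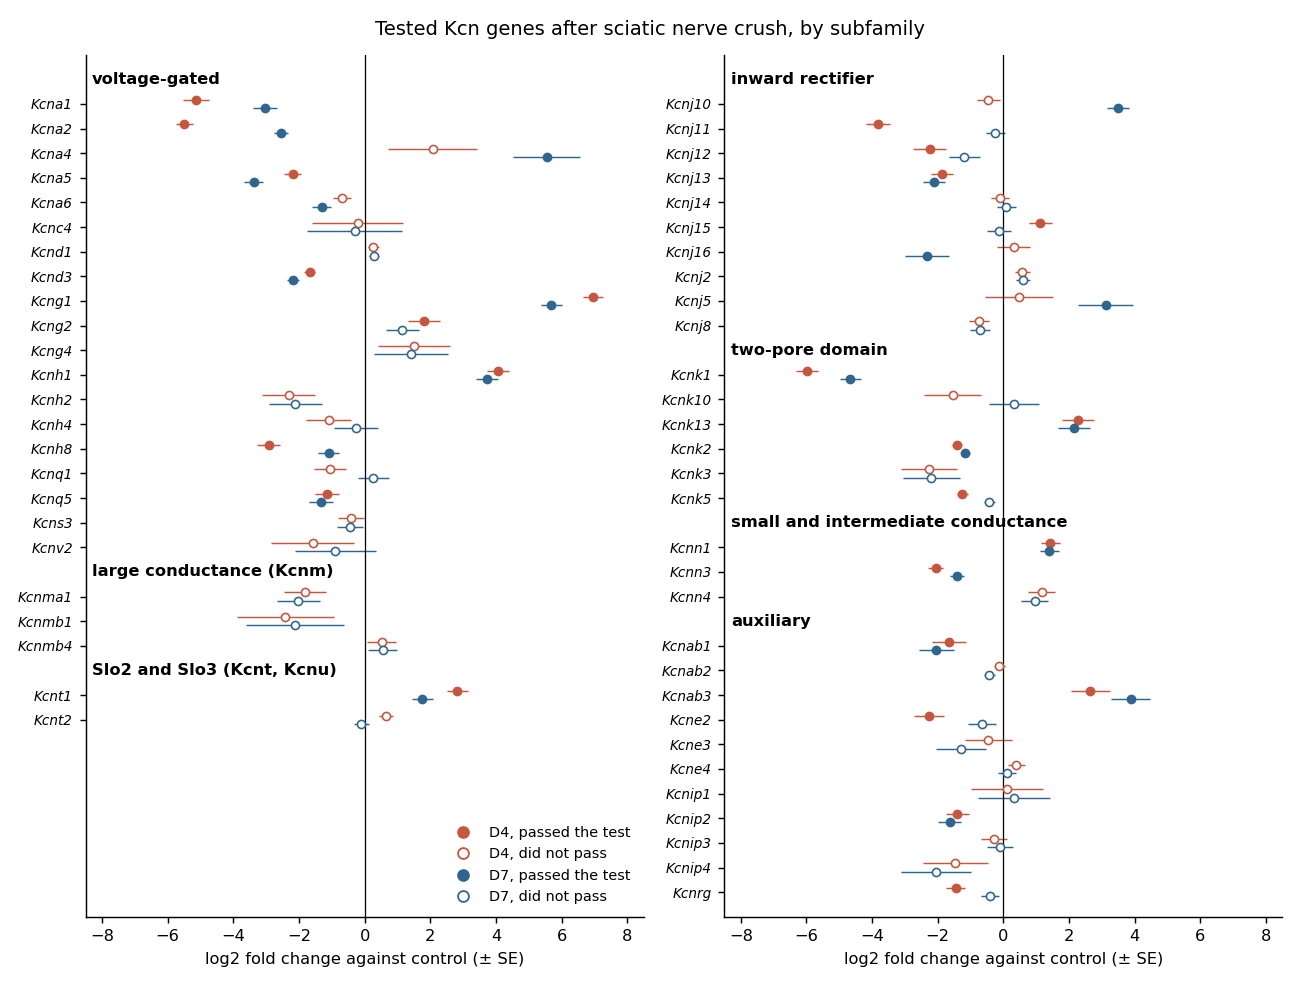
Log2 fold change against control of 54 of the 57 tested Kcn genes at D4 (red) and D7 (blue), grouped by subfamily, with bars of 1 standard error from the edgeR fit. Filled points passed the test and open points did not. Kcna1, Kcna2 and Kcnk1 lie farthest to the left at D4, at -5.14, -5.50 and -5.98, and Kcng1 lies farthest to the right, at 6.95.

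Across the days, 14 members were lower on both D4 and D7, among them Kcna1, Kcna2, Kcna5, Kcnab1, Kcnd3, Kcnh8, Kcnip2, Kcnj13, Kcnk1, Kcnk2, Kcnn3 and Kcnq5. On both days 6 members were higher: Kcnab3, Kcng1, Kcnh1, Kcnk13, Kcnn1 and Kcnt1. At D4 alone, Kcng2 and Kcnj15 passed as higher and Kcne2, Kcnj11, Kcnj12, Kcnk5 and Kcnrg as lower. At D7 alone, Kcna4, Kcnj10 and Kcnj5 passed as higher and Kcna6 and Kcnj16 as lower. The other 25 tested members passed on neither day, and 12 of them (Kcnab2, Kcnc4, Kcnd1, Kcne4, Kcnip1, Kcnip3, Kcnj2, Kcnj8, Kcnj14, Kcnmb4, Kcns3 and Kcnt2) had fitted log2 fold changes between -1 and 1 on both days. The rest (among them Kcne3, Kcng4, Kcnh2, Kcnh4, Kcnip4, Kcnk3, Kcnk10, Kcnma1, Kcnmb1, Kcnn4, Kcnq1 and Kcnv2) went beyond these limits on at least 1 day, without passing. The call on 1 day and not on the other is not a test of the difference between the days. None of the members passed with opposite directions on the 2 days.

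The difference between the days was tested directly, in D7 against D4. Of the 57 members 6 passed (10.5%), against 2.18% of all genes tested (1.68% higher and 0.494% lower). With the adjusted p-value alone the same 6 passed, against 710 of all 15195 genes tested. Kcna1, Kcna2, Kcnh8, Kcnj10 and Kcnj11 were higher at D7 than at D4, and Kcng1 was lower. All 6 calls rest on having both D4 libraries. Without D4 a their adjusted p-values were 0.138 to 0.265, and without D4 b 0.112 to 0.222, and in either case 0 genes of the whole table passed, although all 6 kept an unadjusted p under 0.05, as did 2054 and 2296 genes in all. Without D7 a, the calls of Kcna1, Kcng1 and Kcnh8 were lost, with adjusted p-values of 0.0996 to 0.186. DESeq2 called 11 members in this contrast, these 6 among them.

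Among the voltage-gated members, 22 of 28 were tested, of which 3 were higher and 8 lower at D4, and 3 were higher and 9 lower at D7. That was 50% called at D4 and 54.5% at D7, against 21.9% and 18.8% of all genes tested. With the adjusted p-value alone the same members passed, against 44.2% and 37.5% of all genes tested. Their median log2 fold change was -1.12 at D4 and -0.68 at D7. Among the tested genes the rises were in Kcng1, Kcng2, Kcnh1 and Kcna4.

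Kcna1 encodes a low-threshold channel subunit that damps repetitive firing. Its level was 219 and 160 CPM in control a and b, 4.76 and 5.98 CPM at D4, and 31.0 and 15.3 CPM at D7. Neither day overlapped with control, and the D7 libraries lay above both D4 libraries. Kcna1 fell 35.2-fold at D4 (log2 fold change -5.14 ± 0.40 SE, adjusted p = 0.000334, edgeR) and stood 8.18-fold below control at D7 (-3.03 ± 0.36, adjusted p = 0.00179). From D4 to D7 it rose 4.30-fold (2.11 ± 0.37, adjusted p = 0.0376).

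Kcna2, which assembles with Kcna1 in the same channels, was at 253 and 208 CPM in control, 5.29 and 4.88 CPM at D4, and 47.7 and 31.1 CPM at D7. The 3 groups did not overlap. It fell 45.3-fold at D4 (-5.50 ± 0.26, adjusted p = 0.000124, edgeR), was 5.85-fold below control at D7 (-2.55 ± 0.22, adjusted p = 0.00073), and rose 7.74-fold from D4 to D7 (2.95 ± 0.24, adjusted p = 0.0117).

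Kcna5, whose channel has been described in Schwann cells and vessel walls, took another course. It was at 37.8 and 38.3 CPM in control, 7.84 and 8.79 CPM at D4, and 4.74 and 2.52 CPM at D7. Both D7 libraries lay below both D4 libraries, but the difference between the days did not pass (-1.19 ± 0.28, adjusted p = 0.0698, edgeR). Kcna5 was 4.57-fold below control at D4 (adjusted p = 0.00139) and 10.4-fold at D7 (adjusted p = 0.000667). Kcna5, Kcna1 and Kcna6 are neighbours on chromosome 4 of Rnor_6.0, with Kcna5 at 159077195 to 159079003, Kcna1 at 159190804 to 159192526 and Kcna6 at 159253934 to 159287193. Kcna6 was at 14.1 and 10.2 CPM in control, 6.44 and 8.53 CPM at D4, and 5.78 and 4.01 CPM at D7, and passed as lower at D7 (-1.31 ± 0.28, adjusted p = 0.015). These 3 neighbours thus stood at 3 different log2 fold changes at D4, -2.19, -5.14 and -0.70.

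Kcna4, a subunit of fast-inactivating channels, was close to absent in control and D4 and present at D7. It had 1 and 0 counts in control, 1 and 6 at D4, and 40 and 25 at D7. The ratio of D7 to control was 56.4, with a 95% counting interval of 9.77 to 2261, and the test passed (adjusted p = 0.00858, edgeR). It passed the low-count filter through its D7 libraries alone, so a difference was built into its being tested.

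Kcnd3, which encodes a channel of the transient A-type current, was at 76.9 and 60.2 CPM in control, 19.1 and 23.8 CPM at D4, and 13.9 and 16.1 CPM at D7. It fell 3.19-fold at D4 (-1.67 ± 0.18, adjusted p = 0.000856, edgeR) and 4.57-fold at D7 (-2.19 ± 0.18, adjusted p = 0.00064). Its relative Kcnd1 was at 8.92 to 12.3 CPM in the 6 libraries and did not pass on either day, with log2 fold changes of 0.27 ± 0.16 and 0.28 ± 0.16. The Kcnd-interacting subunit gene Kcnip2 was lower on both days (-1.41 ± 0.35 and -1.64 ± 0.35).

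Kcnh8 and Kcnh1 belong to the same family of voltage-gated channels and moved in opposite directions. Kcnh8 was at 20.2 and 14.0 CPM in control, 1.81 and 2.70 CPM at D4, and 9.86 and 6.18 CPM at D7. It fell 7.56-fold at D4 (-2.92 ± 0.35, adjusted p = 0.0014, edgeR), stood 2.13-fold below control at D7 (-1.09 ± 0.32, adjusted p = 0.0411) and rose 3.55-fold between the days (1.83 ± 0.35, adjusted p = 0.0448). The D7 call of Kcnh8 was lost under 7 of 12 alternatives, with adjusted p-values of up to 0.151, among them a fit without TMM factors, one with the library letter as a block and one of only the 2 groups, and its call between the days was lost with the block too. Kcnh1, the ether-a-go-go channel gene, is known for its expression in dividing cells. It had 7 and 11 counts in control, 216 and 218 at D4, and 159 and 120 at D7, and rose 16.6-fold at D4 (4.05 ± 0.33, adjusted p = 0.000387) and 13.2-fold at D7 (3.72 ± 0.33, adjusted p = 0.000777). The dividing-cell markers Mki67, Top2a and Ccnb1 also passed as higher on both days, 3 of 3, with a summed level of 29.0 to 62.5 CPM in control, 715 to 842 CPM at D4 and 481 to 515 CPM at D7, and their part in the rise of Kcnh1 was not tested.

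Kcng1 encodes a subunit that forms no channel alone and alters other voltage-gated channels when it joins them. It had the largest fitted rise of all tested members on both days. It had 5 and 8 counts in control, 997 and 1359 at D4, and 348 and 439 at D7. That was 0.26 and 0.48 CPM, 40.9 and 50.2 CPM, and 16.3 and 21.7 CPM. The gene passed the low-count filter through its D4 and D7 libraries alone, so a difference from control was built into its being tested. Kcng1 rose 124-fold at D4 (6.95 ± 0.31, adjusted p = 0.00012, edgeR) and was 51.7-fold above control at D7 (5.69 ± 0.32, adjusted p = 0.000315), a fall of 2.40-fold between the days (-1.26 ± 0.20, adjusted p = 0.0333). Kcng2, of the same silent type, was higher at D4 with 36 and 40 counts against 6 and 9 (1.80 ± 0.49, adjusted p = 0.0272).

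Kcnq5, which carries a slow M-type current, was lower on both days, by log2 fold changes of -1.15 ± 0.36 (adjusted p = 0.0445, edgeR) and -1.32 ± 0.37 (adjusted p = 0.035). These calls were lost under 8 of 12 alternatives at D4 and 5 of 12 at D7, the fits without TMM factors and with the block among them, with adjusted p-values of up to 0.204 and 0.149. Kcnq3, a neuronal M-current gene, had a summed count of 22 and was not tested.

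**Figure D2:**
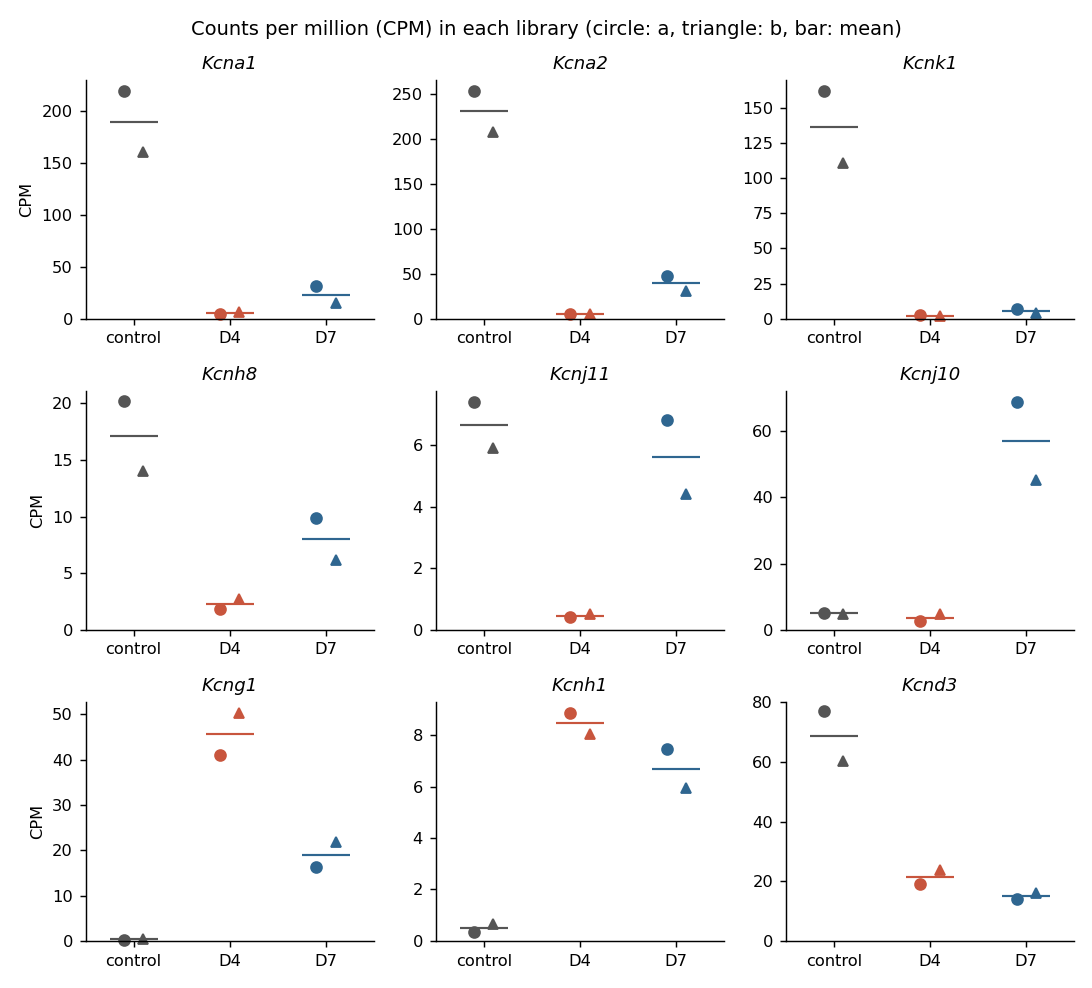
CPM of 9 Kcn genes in each of the 6 libraries, on axes that start at 0, with a horizontal bar at the mean of each group of 2 rats. Kcna1, Kcna2, Kcnk1 and Kcnd3 are below control on both days, Kcnj11 is close to control at D7, Kcnj10 stands high only in the 2 D7 libraries (68.8 and 45.1 CPM), and Kcng1 and Kcnh1 are near 0 in control.

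All 10 inward rectifier members were tested. At D4, 1 was higher and 3 lower, and at D7, 2 were higher and 2 lower, with medians of -0.29 and -0.19. That was 40% called on each day, against 21.9% and 18.8% of all genes tested. The share was the same by the adjusted p-value alone, where 44.2% and 37.5% of all genes passed. Of all tested members, Kcnj10 and Kcnj11 had the largest fitted differences between the days.

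Kcnj10 encodes a channel through which glia take up potassium. It was at 5.20 and 4.88 CPM in control, 2.59 and 4.73 CPM at D4, and 68.8 and 45.1 CPM at D7. Both D7 libraries were far above the other 4. It did not pass at D4 (-0.46 ± 0.34, adjusted p = 0.314, edgeR), was 11.3-fold above control at D7 (3.50 ± 0.33, adjusted p = 0.000949) and rose 15.5-fold between the days (3.95 ± 0.34, adjusted p = 0.0117). Kcnj16, whose product pairs with that of Kcnj10 in other tissues, had 8 and 6 counts in control, 11 and 14 at D4, and 2 and 1 at D7. Control exceeded D7 by a ratio of 5.38, with a counting interval of 1.50 to 29.2 (adjusted p = 0.0383, edgeR). Kcnj16 passed the low-count filter through its D4 libraries alone, and neither control nor D7 reached the filter level. Its call was lost under 8 of the 9 alternatives that gave it a value, among them leaving out control a, control b, D4 a, D7 a or D7 b, with adjusted p-values of up to 0.165.

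Kcnj11 encodes the pore of an ATP-sensitive channel. It had 144 and 98 counts in control, 10 and 14 at D4, and 145 and 89 at D7. In CPM that was 7.42 and 5.91, 0.41 and 0.52, and 6.81 and 4.40, so the D7 libraries overlapped with control and the D4 libraries stood apart. It fell 14.2-fold at D4 (-3.82 ± 0.35, adjusted p = 0.000565, edgeR), rose 11.9-fold from D4 to D7 (3.57 ± 0.35, adjusted p = 0.0122) and did not pass at D7 against control (-0.25 ± 0.29, adjusted p = 0.529). The gene of its regulatory partner, Abcc8, lies next to it on chromosome 1 and was at 2.0 and 4.2 CPM in control, 0.1 and 0.4 CPM at D4, and 1.8 and 0.7 CPM at D7. Abcc8 passed as lower at D4 (-3.47 ± 0.77, adjusted p = 0.0136, edgeR) and did not pass between the days (2.21 ± 0.79, adjusted p = 0.16).

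The other ATP-sensitive pair, Kcnj8 and Abcc9, is known from vessel walls. Kcnj8 was at 14.9 and 23.9 CPM in control and at 9.48 to 14.2 CPM in the injured libraries, and passed on neither day (-0.75 ± 0.30 and -0.71 ± 0.30). Kcnj13, which encodes a channel of transporting epithelia and had the highest control FPKM of the inward rectifiers (9.50), was at 15.6 and 11.8 CPM in control, 4.93 and 2.55 CPM at D4, and 3.24 and 3.07 CPM at D7. It was 3.67-fold lower at D4 (-1.88 ± 0.34, adjusted p = 0.00648, edgeR) and 4.34-fold lower at D7 (-2.12 ± 0.35, adjusted p = 0.00579). Kcnj12 was lower at D4 (-2.25 ± 0.50), Kcnj15 was higher at D4 (1.13 ± 0.35), and Kcnj5 rose from 1 and 2 counts in control to 17 and 15 at D7, a ratio of 9.25 with a counting interval of 2.89 to 47.2 (adjusted p = 0.0316, edgeR). Kcnj5 passed the low-count filter through its D7 libraries alone, so that a difference was built in, and its call was lost under 6 of 11 alternatives, DESeq2 and the block among them, with adjusted p-values of up to 0.141. Kcnj2, the classical inward rectifier of muscle, was at 4.04 to 7.54 CPM in the 6 libraries and passed on neither day.

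Of the 10 two-pore members, 6 were tested. At D4, 1 was higher and 3 were lower, and at D7, 1 was higher and 2 were lower, with medians of -1.48 and -0.79. That was 66.7% called at D4 and 50% at D7, against 21.9% and 18.8% of all genes tested. Both shares were the same by the adjusted p-value alone, where 44.2% and 37.5% of all genes passed. Kcnk1 had the largest fitted fall of all tested members on both days. It was at 162 and 111 CPM in control, 2.38 and 1.96 CPM at D4, and 6.76 and 3.96 CPM at D7. The 3 groups did not overlap. Kcnk1 fell 62.9-fold at D4 (-5.98 ± 0.34, adjusted p = 0.000163, edgeR) and was 25.4-fold below control at D7 (-4.67 ± 0.32, adjusted p = 0.000401), while its difference between the days did not pass (1.31 ± 0.33, adjusted p = 0.0811).

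Kcnk16 was not tested, and its 53 and 7 counts in control, 7 and 4 at D4, and 0 and 3 at D7 differed widely between the control rats.

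Kcnk2, a channel gated by stretch and lipids, was at 18.9 and 21.4 CPM in control and at 7.10 to 9.20 CPM in the injured libraries, lower on both days (-1.42 ± 0.15 and -1.16 ± 0.15). Kcnk5 was lower at D4 alone, with 33.8 and 25.3 CPM in control, 12.5 and 12.4 CPM at D4, and 23.9 and 20.1 CPM at D7 (-1.25 ± 0.18 at D4 and -0.43 ± 0.17 at D7). Kcnk13 was the member of this group that rose. It had 27 and 9 counts in control, 131 and 112 at D4, and 71 and 111 at D7, and was 4.82-fold higher at D4 (2.27 ± 0.49, adjusted p = 0.012, edgeR) and 4.47-fold higher at D7 (2.16 ± 0.49, adjusted p = 0.0174). The product of Kcnk13 is known as a potassium channel of microglia, and all 6 macrophage markers (Cd68, Adgre1, Aif1, Csf1r, C1qa and C1qb) passed as higher on both days, at summed levels of 173 to 211 CPM in control, 756 to 766 CPM at D4 and 506 to 642 CPM at D7. Their part in the rise of Kcnk13 was not tested.

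None of the 3 tested calcium-activated large conductance members passed on either day, although their fitted medians were -1.82 and -2.02. At an unadjusted p under 0.05, 1 of the 3 (Kcnma1) passed on each day, and DESeq2 called the same 1 gene on each day. Kcnmb1, the vessel-muscle subunit, had 16 and 412 counts in control a and b, 22 and 104 at D4, and 19 and 101 at D7. Kcnma1, the pore gene, had 131 and 456 counts in control, 139 and 108 at D4, and 69 and 105 at D7. Control b stood alone for both, and its mural marker levels stood alone too. Of 6 mural markers, 1 passed as lower at D4 and 2 at D7, and their summed level was 1198 CPM in control a and 5511 CPM in control b, and 630 to 1161 CPM in the injured libraries. Kcnmb1 gave -2.41 ± 1.49 at D4 (adjusted p = 0.231, edgeR). Without control b its fitted value turned to 1.53 at D4 and from -2.12 to 1.82 at D7. Over all alternatives its fitted values ran from -3.81 to 1.53 at D4 and from -3.83 to 1.82 at D7. Kcnma1 gave -1.82 ± 0.65 at D4 (adjusted p = 0.0637). The part of the mural markers in these values was not tested.

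In the small and intermediate conductance group, 3 of 4 members were tested, and 1 rose and 1 fell on each day. That was 66.7% called on each day, against 21.9% and 18.8% of all genes tested, or 44.2% and 37.5% by the adjusted p-value alone. Kcnn3 was at 16.3 and 15.3 CPM in control, 3.82 and 3.69 CPM at D4, and 4.84 and 6.93 CPM at D7, lower by 4.19-fold at D4 (-2.07 ± 0.22, adjusted p = 0.000912, edgeR) and 2.68-fold at D7 (-1.42 ± 0.22, adjusted p = 0.00433). Kcnn1 rose on both days (1.42 ± 0.29 and 1.40 ± 0.29), with 6.95 and 3.74 CPM in control and 13.0 to 15.3 CPM in the injured libraries. Kcnn4, the intermediate conductance channel of immune cells, was at 2.73 and 6.87 CPM in control and at 8.06 to 11.1 CPM in the injured libraries, a separation that did not pass the test (1.17 ± 0.41, adjusted p = 0.0614, and 0.95 ± 0.41, adjusted p = 0.118, edgeR).

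Of the sodium-activated Slo2 genes, Kcnt1 rose and Kcnt2 did not pass. Kcnt1 had 36 and 28 counts in control, 294 and 354 at D4, and 92 and 155 at D7, and was 7.07-fold higher at D4 (2.82 ± 0.32, adjusted p = 0.00118, edgeR) and 3.37-fold higher at D7 (1.75 ± 0.32, adjusted p = 0.0085). Kcnt2 was at 3.50 and 3.07 CPM in control, 4.88 and 5.50 CPM at D4, and 3.15 and 2.97 CPM at D7 (0.66 ± 0.22 at D4, adjusted p = 0.0541).

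Of the 12 auxiliary members, 11 were tested. At D4, 1 was higher and 4 were lower, and at D7, 1 was higher and 2 were lower, with medians of -0.46 and -0.43. That was 45.5% called at D4 and 27.3% at D7, against 21.9% and 18.8% of all genes tested. By the adjusted p-value alone the same members passed, against 44.2% and 37.5% of all genes. On that basis the auxiliary share was near that of all genes at D4 and below it at D7. The 3 genes of the Kvβ subunits, which attach to the inner face of Kcna channels, went 3 ways. Kcnab1 was at 11.5 and 28.4 CPM in control, 5.95 and 6.69 CPM at D4, and 3.05 and 6.63 CPM at D7, lower on both days (-1.65 ± 0.51, adjusted p = 0.0413, and -2.04 ± 0.52, adjusted p = 0.0264, edgeR). Without control b, D4 a or D4 b both calls of Kcnab1 were lost, and without D7 a that of D7, with fitted values down to -0.86 at D4 and -1.25 at D7. Kcnab2 was at 6.68 to 9.89 CPM in the 6 libraries and passed on neither day. Kcnab3 had 5 and 6 counts in control, 43 and 58 at D4, and 140 and 53 at D7. It was higher by 6.27-fold at D4 (2.65 ± 0.60, adjusted p = 0.015, edgeR) and 14.7-fold at D7 (3.88 ± 0.60, adjusted p = 0.00456). Kcnab3 passed the low-count filter through its D4 and D7 libraries alone, so a difference from control was built into its being tested. Kcnrg, whose product suppresses Kcna channels, had the highest control FPKM of the group (7.69) and was lower at D4 (6.90 and 7.30 CPM against 2.46 and 2.70 CPM, -1.46 ± 0.29, adjusted p = 0.00903). Kcne2 was also lower at D4 (-2.27 ± 0.46).

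Kcnk3 and Kcnh2 were lowest in D7 a, as were the fat-cell markers. So were the summed mural, endothelial, fibroblast and skeletal muscle markers, each also higher in control b than in control a. Mural markers summed to 630 and 1161 CPM in D7 a and b, and endothelial markers to 195 and 267 CPM. Kcnk3 had 568 and 754 counts in control, 218 and 179 at D4, and 31 and 301 at D7. Kcnh2 had 227 and 372, 84 and 92, and 19 and 142 counts. Of the 4 fat-cell markers (Adipoq, Plin1, Lep and Cidec), 0 passed on either day by edgeR or at an unadjusted p under 0.05, and they summed to 1098 and 888 CPM in control, 252 and 123 CPM at D4, and 4.41 and 351 CPM in D7 a and b. In control the 2 genes were higher in b, at 45.5 against 29.3 CPM and 22.4 against 11.7 CPM. The summed fat-cell markers were higher in control a, and at D4 Kcnh2 was at 3.45 and 3.40 CPM. Kcnk3 (-2.26 ± 0.86, adjusted p = 0.0768, edgeR) and Kcnh2 (-2.31 ± 0.81, adjusted p = 0.0611) did not pass at D4, nor at D7 (adjusted p = 0.0934 and 0.0873). The part of any of these marker sets in the values of Kcnk3 and Kcnh2 was not tested.

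**Figure D3:**
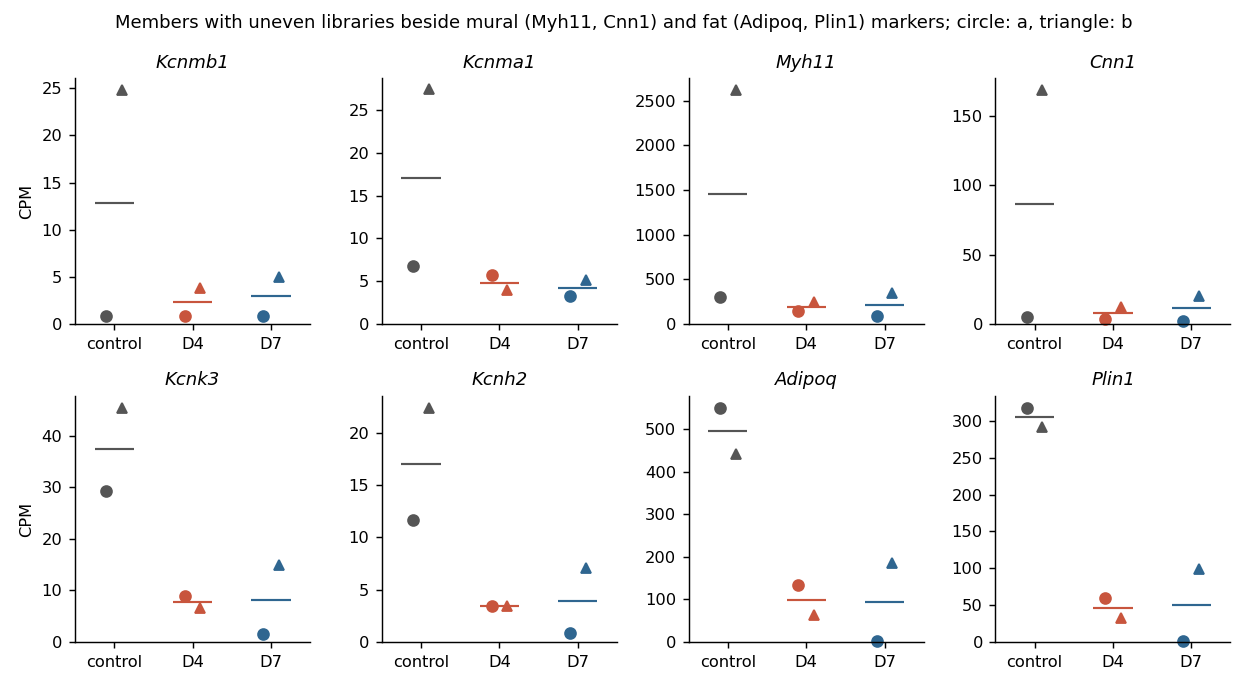
CPM in each library of 4 Kcn genes whose 2 rats differed widely, beside the mural markers Myh11 and Cnn1 and the fat-cell markers Adipoq and Plin1, with a bar at each group mean and axes that start at 0. Kcnmb1, Kcnma1, Myh11 and Cnn1 are high in control b, and Kcnk3, Kcnh2, Adipoq and Plin1 are lowest in D7 a. Kcnma1 and Myh11 are lowest in D7 a too.

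The members that fell most and partly returned were set beside genes of compact myelin and of the Schwann cell. All 6 myelinating Schwann markers were lower at D4, 4 of them were still lower at D7, and 5 were higher at D7 than at D4. As a share of the mean control CPM, Kcna1 was at 2.51% and 3.16% at D4 and at 16.4% and 8.06% at D7. Kcna2 was at 2.30% and 2.12% and then at 20.7% and 13.5%. Pmp22, a gene of compact myelin, was at 1.62% and 1.94% and then at 12.8% and 7.76%. Kcnk1 stayed lower at D7, at 4.95% and 2.90%, while Kcnh8 and Kcnj11 were at 57.7% and 36.2% and at 102% and 66.1%. In D7 a the levels of Kcna1, Kcna2, Kcnk1, Kcnh8, Kcnj11 and Kcnj10, and of all 6 myelin markers, were above those of D7 b. The 3 markers of the Schwann lineage did not move alike. Erbb3 passed as higher on both days, and Sox10 was at 257 to 357 CPM in control and 298 to 546 CPM after injury. S100b was at 2140 and 1799 CPM in control and 885 to 1135 CPM after injury (-0.81 ± 0.16, adjusted p = 0.00821, and -0.96 ± 0.16, adjusted p = 0.00571, edgeR), lower but by less than the 2-fold a call needs. The part of the myelin markers' change in the change of the Kcn genes was not tested.

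**Figure D4:**
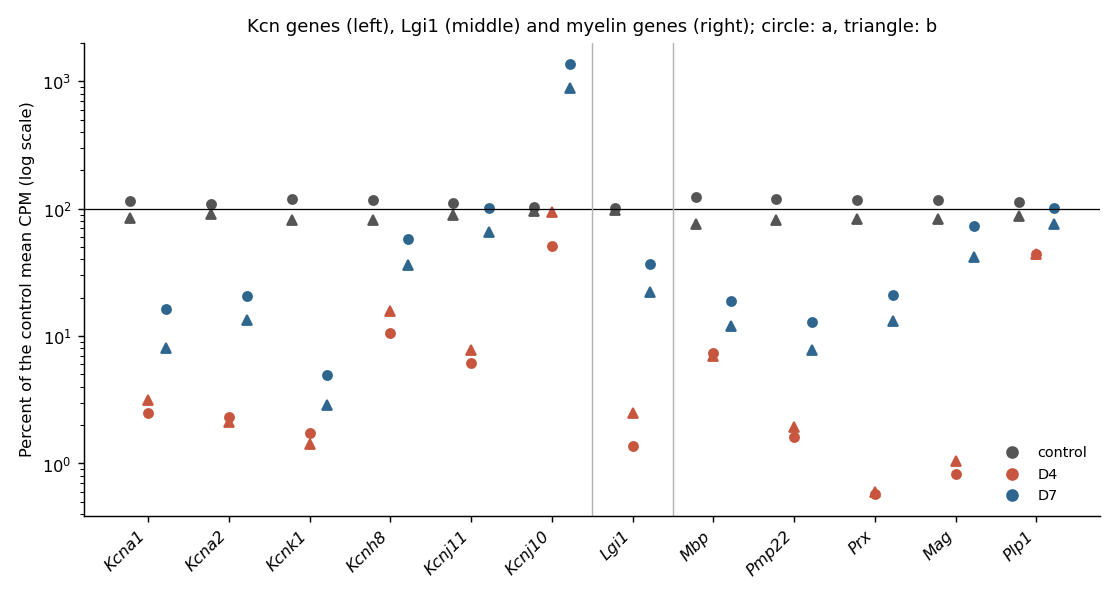
Level of each library as a percent of the mean control CPM, on a log axis, for 6 Kcn genes, for Lgi1 and for 5 myelin genes, with 2 rats per group. Kcna1 and Kcna2 lie between 2.12% and 3.16% at D4 and between 8.06% and 20.7% at D7, in the range of the D7 values of Mbp, Pmp22 and Prx (7.76% to 21.2%), while Kcnj10 reaches 1364% and 895% at D7.

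Genes that handle potassium or hold its channels in place, but have other names, were followed as a list of 45, of which 44 were in the table and 38 were tested. At D4, 5 were higher and 15 lower, and at D7, 3 were higher and 14 lower. Those called were 52.6% and 44.7% of the 38, against 21.9% and 18.8% of all genes tested. The list was chosen with earlier results of these data known, so part of this gap may come from the choice. For the Kcn members the shares were 47.4% and 43.9%. Beside Kcna channels on the axon and Schwann cell stand the proteins of Lgi and Adam genes and the Dlg scaffolds. Lgi1 was at 45.5 and 43.8 CPM in control, 0.6 and 1.1 CPM at D4, and 16.4 and 9.99 CPM at D7, lower on both days (-5.67 ± 0.36 and -1.76 ± 0.28) and higher at D7 than at D4 (3.91 ± 0.35, adjusted p = 0.012, edgeR). Adam23 and Lgi4, which acts in Schwann cell myelination, were also higher at D7 than at D4 (1.70 ± 0.24 and 1.14 ± 0.20). Dlg2 and Adam22 were lower on both days, and Lgi2 and Lgi3 higher on both days. Cntnap2 was not analysed here.

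Of the 13 channel partners, 10 were tested, and 4 were lower at D4 and 5 at D7. That was 40% and 50% called, against 21.9% and 18.8% of all genes tested. Amigo1, an adhesion protein gene whose product joins voltage-gated channels, was lower on both days (-1.31 ± 0.12 and -1.26 ± 0.12). So was Dpp10, a partner of Kcnd channels (-4.54 ± 1.08 and -3.72 ± 1.03). Dpp10 had 19 and 18 counts in control, 0 and 2 at D4, and 0 and 3 at D7. It passed the low-count filter through its control libraries alone, so a difference was built into its being tested. Abcc9 was lower at D7 (-1.59 ± 0.47). Of the 17 tested pump and cotransporter genes, 3 were higher and 8 lower at D4, and 1 was higher and 6 lower at D7. Those called were 64.7% at D4 and 41.2% at D7. The cotransporter gene Slc12a2 was lower on both days (-1.87 ± 0.16 and -1.10 ± 0.15), and the pump subunit gene Atp1b1 was higher on both (2.31 ± 0.22 and 2.78 ± 0.23).

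Long noncoding RNA (lncRNA) transcripts were counted in the same libraries, and 52 of them overlapped the span of 28 members on Rnor_6.0, 39 wholly inside it. Of these, 21 transcripts were tested. At D4, 8 passed, 2 higher and 6 lower, which was 38.1% against 10.1% of all 14077 lncRNA transcripts tested (5.19% higher and 4.87% lower). At D7, 4 passed, all lower, which was 19.0% against 5.79% in either direction, 3% higher and 2.79% lower. Between the days 0 of 21 passed (edgeR), with 3 at an unadjusted p under 0.05, where 0.249% of all transcripts tested passed. Where a transcript passed, the gene it overlaps had passed in the same direction in 7 of 8 pairs at D4 and in 4 of 4 at D7. The counting is not stated to use strand, so reads of a gene and of a transcript inside it may have been shared.

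The largest of these changes lay within Kcnk1, on chromosome 19 from 58823814 to 58862926. NONRATT014419.2, at 58861957 to 58862924, had 1603 and 1070 counts in control, 4 and 1 at D4, and 1 and 1 at D7. The ratio of control to D7 was 1429, with a counting interval of 395 to 11802, against 25.4-fold for the gene. NONRATT014419.2 passed the low-count filter through its control libraries alone, so a difference was built into its being tested. MSTRG.14084.1, at 58828372 to 58832018, had 393 and 181 counts in control, 7 and 3 at D4, and 19 and 9 at D7. The first transcript stayed at or near 1 count at D7, while the counts of the gene and of the second transcript were higher in both D7 libraries than in both D4 libraries, and none of these differences between the days passed the test. Inside Kcnh1, NONRATT008582.2 had 0 and 4 counts in control, 41 and 61 at D4, and 24 and 36 at D7, and passed as higher at D4 (adjusted p = 0.036, edgeR). Inside Kcnt1, NONRATT017899.2 had 5 and 5, 19 and 21, and 9 and 10 counts and passed as higher at D4 (adjusted p = 0.048, edgeR). NONRATT008582.2 and NONRATT017899.2 passed the low-count filter without their control libraries, so a difference from control was built into their being tested. The count of 8 at D4 fell to 4 with the library letter as a block, to 2 with no low-count filter and to between 1 and 5 as each library was left out. None of the transcripts passed as higher at D4 with the block, with no low-count filter, or in 5 of the 6 fits that left out a library.

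**Figure D5:**
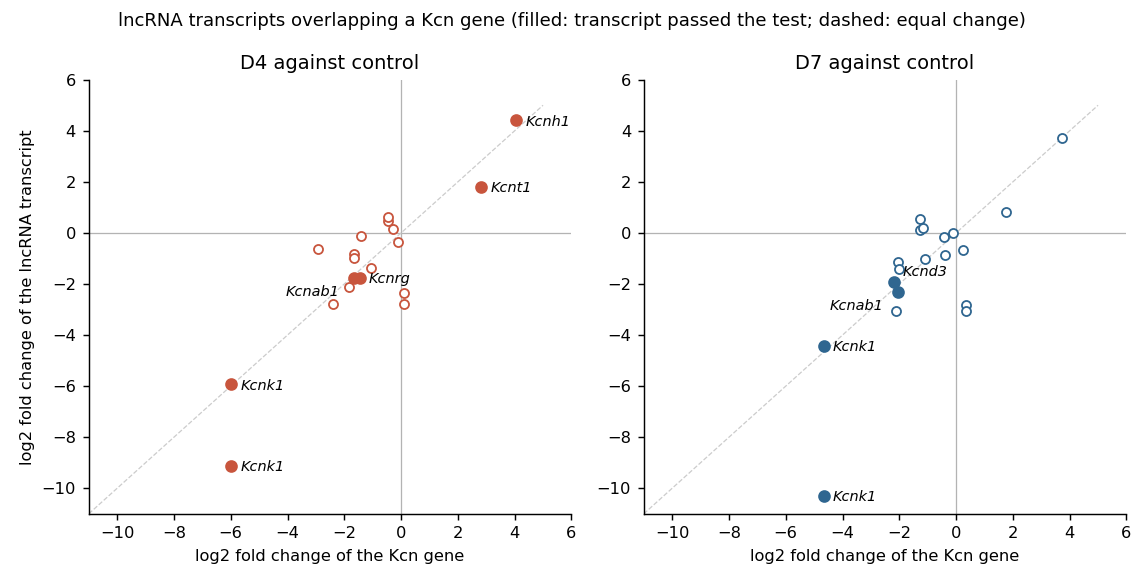
Log2 fold change of a tested lncRNA transcript (vertical axis) against that of the Kcn gene it overlaps (horizontal axis) at D4 and D7, for 19 of the 22 pairs of transcript and gene, with the named gene beside each transcript that passed the test (filled points) and a dashed line of equal change. The 2 transcripts in Kcnk1 lie at the lower left, 1 near the dashed line and the other, NONRATT014419.2, below it at -9.13 and -10.3.

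Calls differed in how far they depended on single libraries. At D4, 13 of the 27 calls passed under every alternative in which the gene was tested: Kcna1, Kcna2, Kcna5, Kcnd3, Kcng1, Kcnh1, Kcnh8, Kcnj11, Kcnj13, Kcnk1, Kcnk2, Kcnn3 and Kcnt1. At D7, 14 of 25 did, among them Kcna1, Kcna2, Kcna4, Kcna5, Kcnab3, Kcnd3, Kcng1, Kcnh1, Kcnj10, Kcnj13, Kcnk1, Kcnn3 and Kcnt1. The count at D4 was 16 without D4 a, when 12 calls were lost with adjusted p-values of up to 0.201, and 16 without D4 b, when 11 were lost with adjusted p-values of 0.0528 to 0.204. Among them Kcnab1, Kcnab3, Kcng2, Kcnip2, Kcnj12, Kcnj15, Kcnn1, Kcnq5 and Kcnrg were lost in both cases, Kcnk13 without D4 a alone, and Kcne2 without D4 b alone. Among the named genes, leaving out control a lost Kcnab3, Kcng2, Kcnip2 and Kcnj15 at D4 and Kcna6, Kcnh8, Kcnip2, Kcnj16 and Kcnj5 at D7, and leaving out control b lost Kcnab1, Kcnj15 and Kcnq5 at D4 and Kcnab1, Kcnj16, Kcnj5 and Kcnq5 at D7. At D7, Kcnab1, Kcnip2, Kcnj16, Kcnj5, Kcnn1 and Kcnq5 were lost without D7 a, and Kcna6, Kcnh8, Kcnj16, Kcnj5, Kcnk13 and Kcnq5 without D7 b, with adjusted p-values of 0.0539 to 0.165.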

How the data were processed

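Total RNA of 6 rat sciatic nerves was depleted of ribosomal RNA and sequenced as paired-end reads. Per the study's methods and processing notes, the authors mapped reads to Rnor_6.0 with HISAT2 2.0.4 and assembled transcripts with StringTie 1.3.0. The authors deposited raw fragment counts per gene and per lncRNA transcript, and FPKM computed from them. Whether counting used the strand is not given in the sources used here. Counts were tested with edgeR 4.0.16 (R 4.3.3): filterByExpr, TMM factors, 1 quasi-likelihood fit of the 6 libraries, and Benjamini-Hochberg adjustment over all 15195 genes or 14077 transcripts tested. A change was called at an adjusted p-value under 0.05 and at least 2-fold. The SE is the absolute log2 fold change over the square root of F. Intervals for low counts cover counting error at the 95% level. Promoters came from RefSeq (GRCr8), and the files' coordinates are Rnor_6.0.

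Members, gene lists and tests were chosen with earlier results of these data known. Every called member is named, except that results of some genes are not reported here by name; counts include them. Values in full are given for the 5 largest rises and falls at each day, members called between the days, members the study names, and the highest control FPKM of each subfamily. Other values were chosen for the text after they were seen. Alternatives were DESeq2 1.42.0, no TMM factors, other filters and fold thresholds, omission of each library in turn, fits of 2 groups, and the library letter as a block. By the design the letters name different rats, and no pairing is given. Deviations of same-letter libraries correlated at 0.01, 0.19 and -0.13 for control with D4, control with D7, and D4 with D7. These values cannot tell whether same-letter libraries shared a batch. The procedure was tested on simulated data. With 2 rats per group, p-values rest on a spread between libraries that was estimated jointly over the 3 groups, not within each arm.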

Additional observations from a re-analysis of the deposited data

Results flagged for a closer look

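The change from D4 to D7 was tested as a contrast of its own, and 6 potassium channel genes differed between the days. Kcnj10 was higher at D7 by 3.95 on the log2 scale, Kcnj11 by 3.57, Kcna2 by 2.95, Kcna1 by 2.11 and Kcnh8 by 1.83, and Kcng1 was lower at D7, at -1.26. In each of the 6 genes both D7 libraries lay on the same side of both D4 libraries, but a call selects for such a separation. The same held in 54.4% of the tested members and in 60.6% of all genes tested. Without D4 a or without D4 b none of these calls passed (edgeR), nor did any other gene of the table. With only 2 rats per group no library could be judged as far from the others.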

How the results depend on the processing

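No called value of a potassium channel gene changed sign under any alternative run. Called members moved between 16 and 28 at D4, 19 and 23 at D7, and 0 and 8 in D7 against D4 as each library was left out. For lncRNA transcripts at Kcn genes the ranges were 1 to 5 at D4 and 1 to 4 at D7. DESeq2 called 11 members in D7 against D4. With no low-count filter 2 lncRNA transcripts passed at D4. With the library letter as a replicate block 26, 22 and 6 members passed (D4, D7, and D7 against D4), and 4 lncRNA transcripts at D4, and 2 members at D4, 4 at D7 and 1 between the days lost their calls. The crossed pairing, added after the data were seen, gave 6 in D7 against D4. Leaving out the TMM factors moved the median log2 fold change of all genes from -0.04 to 0.25 at D4 and from 0.01 to 0.31 at D7, and left 24 and 21 members called, 37.5% and 42.9% of them higher. With 10 counts required in every library 39 members were tested, and 21 and 18 passed. Fewer libraries leave fewer degrees of freedom, and the cause of the other shifts was not tested. With 2 libraries per group and few counts in many members, a missing call says little about smaller changes.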
